A study of Danio rerio with 2 samples.

Results

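Cytosolic ribosomal protein genes encode the proteins that, with ribosomal RNA, build the large (Rpl) and small (Rps) subunits of the ribosome. Their messages share a terminal oligopyrimidine tract that couples their translation to growth signalling, the proteins are made in near-equal amounts, and their transcripts are among the most abundant of any animal cell. In erythroid cells a shortage of single ribosomal proteins is known to activate p53, as in Diamond-Blackfan anaemia, and zebrafish mutants in several of these genes are anaemic. They were described here in 1 library of cells from miR-223 mutant zebrafish and 1 library from wildtype zebrafish. The members were the genes whose symbol begins with rpl or rps followed by a number, p and a number, or a. The pattern matched 95 of 27771 features. It included 11 genes of the ribosomal S6 kinase family (rps6k) and rps19bp1, which are no ribosomal proteins and were set aside, so that 83 members remained, 49 of the large and 34 of the small subunit. All 83 were listed in the authors' table of average expression by cluster (17822 features).

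Both libraries came from dissected trunks of embryos at 27 hours post fertilization, from which cells with a membrane mCherry reporter under the endothelial kdrl promoter, Tg(kdrl:hras-mCherry)s896, were sorted by fluorescence. The mutant library, called 223mut, carried the allele miR-223(ya303), the activator Tg(miR-223:KalTA4)ya363, the responder Tg(5xUAS:eGFP)nkuasgfp1a and the kdrl reporter. The wildtype library carried the activator as Tg(miR-223:KalTA4)ya362, a different allele, with the same responder and kdrl reporter. The groups therefore differed in the activator allele as well as in miR-223, and strain and mutation cannot be told apart. How many embryos entered each library was not given in the sources used here. The mature miRNA was not measured, so the mutation was not checked from the data.

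The 223mut library had 9176 barcodes and 125149083 UMIs (unique molecular identifiers, 1 per captured transcript 3′ end), and the wildtype library had 8702 barcodes and 92241952 UMIs, with 98 barcodes in both. After a filter of at least 500 genes and at most 10% mitochondrial UMIs, 8464 cells of 223mut (median 9977 UMIs) and 7520 of wildtype (median 8334 UMIs) were kept. Each kept cell was placed in the most likely of the authors' 15 clusters by its non-member genes. Clusters 0, 1, 2, 3, 5 and 6 had the defining markers of endothelial cells, but the sort was not pure: cluster 4 was erythroid-like and held 2779 cells of 223mut and 1321 of wildtype, and mesenchymal-like (7), progenitor-like (8), neural-like (9), muscle-like (10), myeloid-like (11 and 14), notochord-like (12) and epidermal-like (13) clusters were also present. Clusters 0, 2 and 11 differed more than 5-fold between the libraries in the number of cells behind the authors' table. For cluster 11 these were 157 in 223mut and 18 in wildtype, while it had 305 and 112 kept cells. Each group had 1 library, so replicates and tests between groups were lacking. Intervals given below are exact 95% intervals that cover counting error only.

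In endothelial-like cells, ribosomal protein transcripts took nearly the same share of the message pool in both libraries. Summed over the 6 clusters, members held 32.1% of 33123751 UMIs in 223mut and 32.1% of 38472733 UMIs in wildtype, a log2 ratio of 0.0037 (interval 0.0025 to 0.0049). The authors' table holds values that are not raw UMIs, derived in a way not given in the sources used here. By these values the shares were 32.7% in 223mut and 33.1% in wildtype, a log2 ratio of -0.02. Single endothelial-like cells varied far more than the libraries did. The 5th percentile, median and 95th percentile of the share per cell were 23.3%, 31.9% and 39.9% in 4468 cells of 223mut, and 22.5%, 31.9% and 40.7% in 5207 cells of wildtype. With every cell thinned to 2000 UMIs the medians were 31.9% in 223mut and 31.9% in wildtype, which leaves out 329 cells of 223mut and 518 of wildtype that were shallower.

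In erythroid-like cells members took a larger share of total UMIs in 223mut than in wildtype, but not of the UMIs left without globins. Members held 27.7% of UMIs in cluster 4 of 223mut and 25.3% in wildtype, a log2 ratio of 0.133 (interval 0.132 to 0.134), and 25.4% of the authors' table values in 223mut and 22.1% in wildtype, a log2 ratio of 0.20. Globin transcripts, which carry the oxygen-binding chains of haemoglobin and dominate these cells, held 37.6% of UMIs in 223mut and 43.5% in wildtype. With globin UMIs left out of the total, members held 44.4% in 223mut and 44.8% in wildtype, a log2 ratio of -0.01, and by the authors' values 40.3% in 223mut and 41.2% in wildtype, a log2 ratio of -0.03. The direction of the share in erythroid-like cells therefore depended on whether globins were in the total. Per cell, the median was 28.0% in 223mut and 25.1% in wildtype with globins, and 44.7% in 223mut and 44.9% in wildtype without them.

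**Figure D1:**
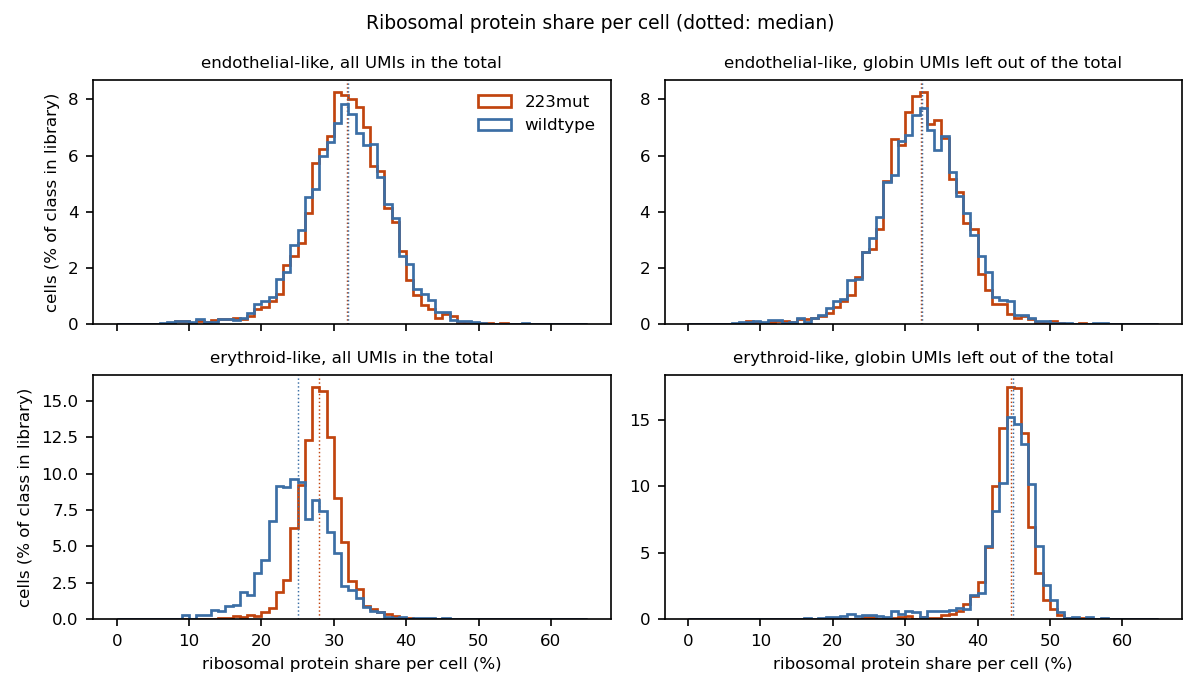
Distribution of the ribosomal protein share of UMIs per kept cell (x axis, %) as a percentage of the cells of that class and library (y axis), for 223mut (orange) and wildtype (blue), with dotted medians. The endothelial-like distributions overlie each other with medians of 31.9% in both libraries, and the erythroid-like medians of 28.0% in 223mut and 25.1% in wildtype come together at 44.7% in 223mut and 44.9% in wildtype without globins.

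Over all kept cells the same dependence was seen. The median share was 30.2% in 223mut and 31.2% in wildtype, a difference of -0.997 percentage points, and with globin UMIs left out it was 35.9% in 223mut and 34.2% in wildtype, a difference of 1.71 points. With erythroid-like cells left out the medians were 32.1% in 223mut and 32.4% in wildtype. Erythroid-like cells were a larger part of the 223mut library, and their part in the median was not otherwise tested.

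Clusters differed in their ribosomal protein share by more than the libraries did. By UMIs, mesenchymal-like cluster 7 held 37.9% in 223mut and 39.7% in wildtype, progenitor-like cluster 8, whose leading genes include the haematopoietic factor gene myb, 37.8% in 223mut and 39.8% in wildtype, and muscle-like cluster 10 38.9% in 223mut and 38.5% in wildtype. The lowest shares outside cluster 4 were those of epidermal-like cluster 13, at 26.8% in 223mut and 26.9% in wildtype, of the 82 cells of cluster 2 in 223mut, at 25.5%, and of notochord-like cluster 12, at 28.6% in 223mut and 29.0% in wildtype. Averaged over both libraries, the highest share was 1.71 times the lowest in the authors' table and 1.47 times in UMIs. The highest by that table was endothelial-like cluster 1, at 40.4% in 223mut and 40.7% in wildtype, and the lowest was cluster 4. Endothelial-like cluster 2 held 26.9% in 223mut and 29.1% in wildtype there, so clusters of 1 class also differed widely. By UMIs cluster 1 held 35.8% in 223mut and 36.4% in wildtype. With globins left out, erythroid-like cluster 4 moved from the lowest place by UMIs to the highest.

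The order of the clusters was much alike in both libraries, with Pearson's r of 0.92 and Spearman's rho of 0.92 across the 15 clusters by UMIs, as a description only, since clusters of a library share its preparation. By UMIs the share lay lower in 223mut in 9 of 15 clusters. The counting interval of the log2 ratio lay below 0 in 8 clusters and above it in 5, and the ratio stayed within 0.1 on the log2 scale in 12. The shares differed most in cluster 2, at 25.5% in 82 cells of 223mut and 30.4% in 2245 cells of wildtype (log2 ratio -0.25), in neural-like cluster 9, at 32.0% in 223mut and 35.3% in wildtype (-0.14), and in erythroid-like cluster 4 (0.13). In the authors' table cluster 14 had the lowest ratio (-0.20) where its UMI ratio was 0.02. Cluster 10 (-0.08 in the table, 0.01 by UMIs) and cluster 11 (0.05 and -0.03) also changed direction. These clusters therefore have no settled direction. In both sources 8 clusters were lower in 223mut and 4 higher. The table ratio of cluster 9 was -0.04, closer to even than by UMIs.

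**Figure D2:**
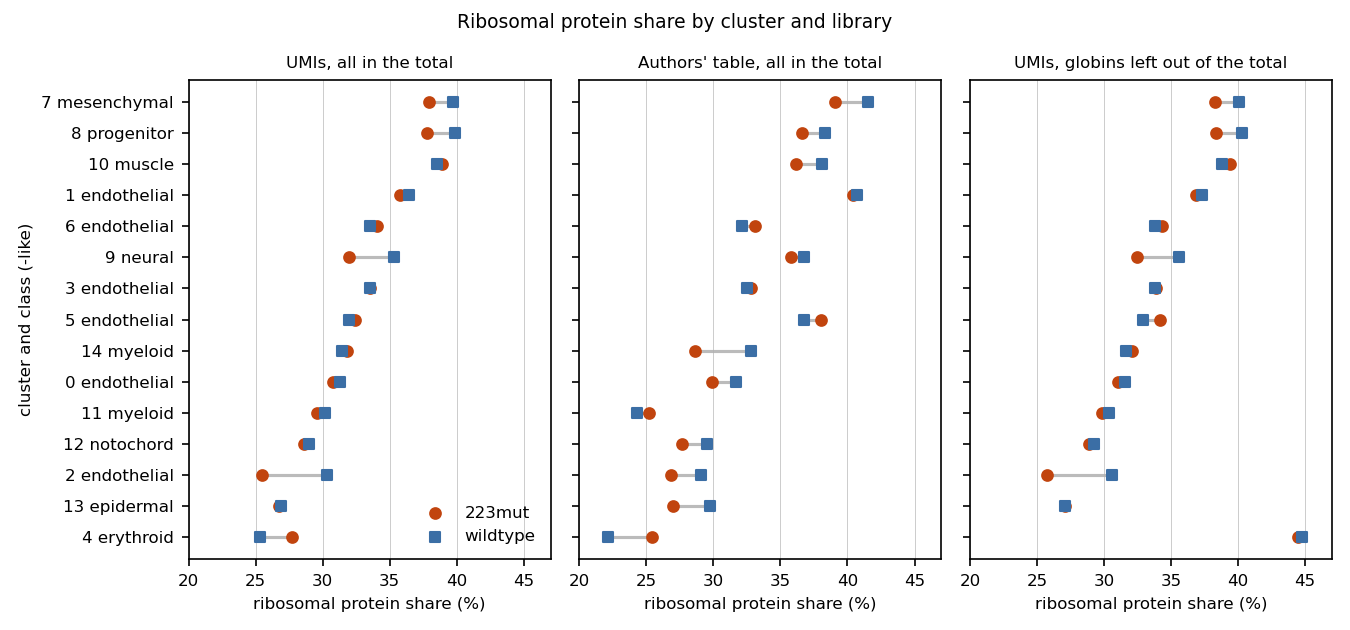
Ribosomal protein share (x axis, %) in each cluster (y axis, ordered by the share of UMIs) for 223mut (orange circles) and wildtype (blue squares), by UMIs, by the authors' table, and by UMIs without globins. Cluster 4 stands at 27.7% in 223mut and 25.3% in wildtype with globins in the total, and at 44.4% in 223mut and 44.8% in wildtype without them.

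Within the family, most members were expressed at high and similar levels. Averaged over clusters and libraries, 77 of the 83 had between 1404 and 8032 counts per 1000000 UMIs (CPM). The highest were rplp1 and rplp0, which encode stalk proteins that recruit elongation factors. In endothelial-like cells rplp1 had 7790 CPM in 223mut and 8261 CPM in wildtype, and rplp0 had 7290 CPM in 223mut and 6918 CPM in wildtype. The small-subunit gene rps2, the third by that average, had 7541 CPM in 223mut and 7617 CPM in wildtype. The 6 members under 1000 CPM were rpl7l1, rpl26, rpl26.1, rps27l, rpl37 and rps8b, most of them second copies of a more abundant gene. The symbol rpl26 had no abundant feature. Together rpl26 and rpl26.1 had 375 CPM in 223mut and 331 CPM in wildtype endothelial-like cells. The last of the 6, rps8b, had 7 UMIs in the endothelial-like cells of 223mut and 8 in those of wildtype. Its paralog rps8a had 167927 UMIs in 223mut and 185374 UMIs in wildtype, and rps8b was not compared further.

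Across clusters the abundant members varied little. None of the 77 members that averaged 1000 CPM or more differed 2-fold between its highest and lowest cluster in UMI CPM (0%). Of 79 other features of that level 69 did (87.3%). Features that mark 1 cluster can pass this filter through that cluster alone, and cells were placed in clusters by non-member genes. The contrast was therefore partly fixed in advance. Over the 30 columns of clusters and libraries in the authors' table, 54 of the 82 members with at least 5 CPM had a Pearson correlation of at least 0.9 with the sum of the others, with a median of 0.92. These columns share libraries and a total, so the values describe the table only.

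Single members mostly had the same level in endothelial-like cells of the libraries. The median log2 ratio of 223mut over wildtype was 0.04 over the 82 members that averaged 5 CPM or more, and 0.04 over all 7211 features that passed the same filter. As the rule of size, a member was called higher where its level in 223mut was at least 25% above that in wildtype and lower where it was at least 20% below. Of the 82 members 1 was higher in 223mut, where 13.2% of all features were, and 6 were lower, where 8.88% were, or 7 in all beside 22.1% of features. The 8 most abundant members, rplp1, rplp0, rps2, rps12, rpl19, rps15a, rpl11 and rps19, had log2 ratios between -0.12 and 0.17. The genes whose products bind Mdm2 in mammals when ribosome assembly falters were close to even, with rpl5a at 0.16, rpl5b at 0.07 and rpl11 at 0.05. The ratio was 0.07 for rps6, whose product is the phosphorylated target of S6 kinase, 0.10 for rpsa, which encodes a small-subunit protein also known as the laminin receptor, 0.13 for rpl10, needed for the final step of large-subunit maturation, and -0.06 for rps19, the gene most often mutated in Diamond-Blackfan anaemia.

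**Figure D3:**
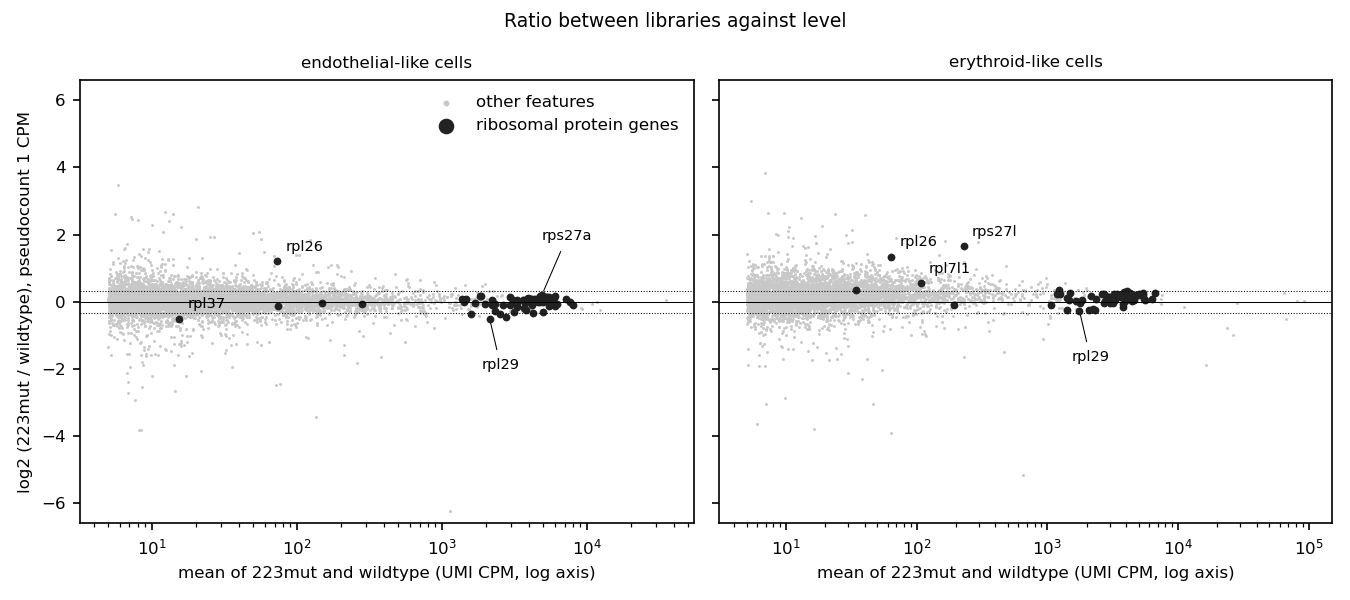
Log2 ratio of 223mut over wildtype (y axis, pseudocount 1 CPM) against mean level (x axis, UMI CPM, log axis) for ribosomal protein genes (black) and other features that averaged 5 CPM or more (grey), in endothelial-like and erythroid-like cells, with dotted lines at the rule of size. Most members lie close to 0 at over 1000 CPM, with rpl29 below the lower line in endothelial-like cells and rps27l and rpl26 above the upper line in erythroid-like cells.

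Most of the members that stood lower in 223mut were abundant genes, and most encode very small proteins. The lowest was rpl29, a large-subunit gene, with 1755 CPM in 223mut and 2507 CPM in wildtype endothelial-like cells, a log2 ratio of -0.51 (interval -0.53 to -0.50). Among members that averaged 50 CPM or more, the next were rps21, with 2325 CPM in 223mut and 3178 CPM in wildtype (-0.45), and rpl38, with 1384 CPM in 223mut and 1783 CPM in wildtype (-0.37), a gene whose loss alters Hox translation and the axial skeleton in mice. For rps29, needed in zebrafish for the formation of blood, the levels were 2200 CPM in 223mut and 2815 CPM in wildtype (-0.36). The gene rpl37.1 came after them, the abundant one of the features with the symbol rpl37, with 3750 CPM in 223mut and 4706 CPM in wildtype (-0.33). Its scarce namesake rpl37, also called lower and with a ratio below that of rps21, had 12.5 CPM in 223mut and 18.1 CPM in wildtype (-0.50). Short of the rule of size came rpl39, which lines the exit tunnel, at -0.30, rps28 at -0.30, the stalk gene rplp2 at -0.28, and rpl36a at -0.25. Rpl39, Rps29, Rps28, Rpl38 and Rps21 are among the smallest proteins of the ribosome. They were named from the lower members only, and protein size was not compared with the ratios over all members. Transcript length was not measured here, and the part of either in these ratios was not tested.

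Most of these members stood lower in every cluster. Of the 77 members that averaged 500 CPM or more, 8 were lower in 223mut in all 15 clusters in both UMIs and the authors' table (10.4%), namely rpl29, rps21, rpl38, rps29, rpl37.1, rps28, rpl39 and rpl34. Of 178 other features of that level, 4 were (2.25%), and 1 of those was RPL37A, a ribosomal protein gene that the rule missed for its capitals, with 3775 CPM in 223mut and 4409 CPM in wildtype endothelial-like cells (log2 ratio -0.22). None of these 77 members was higher in all 15 in both sources (0%), where 0.562% of the other features were. Clusters of a library are no replicates of each other, and a difference between the libraries as a whole cannot be told apart from one between the genotypes. By UMIs, rpl29 had log2 ratios between -0.70 (cluster 2) and -0.28 (erythroid-like cluster 4). In myeloid-like cluster 11 it had 1615 CPM in 223mut and 2340 CPM in wildtype, and in progenitor-like cluster 8 it had 2216 CPM in 223mut and 3182 CPM in wildtype. In each cluster the 223mut value was below the wildtype value, though across clusters the ranges of 1416 to 2656 CPM in 223mut and 1931 to 3825 CPM in wildtype overlapped. Together the 8 genes held 21769 CPM in 223mut and 27340 CPM in wildtype endothelial-like cells, a log2 ratio of -0.33 (interval -0.33 to -0.32). In erythroid-like cells they held 19180 CPM in 223mut and 21538 CPM in wildtype (-0.17). The 8 were chosen for being lower in every cluster of these same cells, so the direction of both sums follows from that choice.

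Depth per cell differed between the libraries, and the lowest members of at least 50 CPM, chosen by their ratios in these same cells, were also compared at matched depth. In endothelial-like cells the summed level of rpl29, rps21, rpl38, rps29 and rpl37.1 in cells of 2000 to 5000 UMIs was 12704 CPM in 223mut and 16517 CPM in wildtype, a log2 ratio of -0.38. The ratio was -0.38 in cells of 5000 to 10000 UMIs, -0.41 in cells of 10000 to 20000 UMIs and -0.35 in cells of 20000 to 60000 UMIs. Within cluster 3, which had similar cell numbers and depth in both libraries, it lay between -0.41 and -0.33 in the 3 bins up to 20000 UMIs.

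Apart from rpl26, no member was called higher. The ubiquitin fusion gene rps27a had 5240 CPM in 223mut and 4531 CPM in wildtype endothelial-like cells, a log2 ratio of 0.21 (interval 0.20 to 0.22). The ratios were 0.17 for rpl19 and 0.17 for rps4x, neither of them called. In UMIs rps27a and rps4x were higher in 223mut in 15 of 15 clusters, and in the authors' table in 13 and 14 of them. Their lowest log2 ratios by UMIs were close to 0, at 0.0096 for rps27a and 0.003 for rps4x. Both were named for their high ratios in these data, and the share of other features higher in all clusters by UMIs alone was not counted. The ratio of summed UMIs of large-subunit to small-subunit members was between 1.34 and 1.39 in the clusters of 223mut and between 1.36 and 1.43 in those of wildtype. It was lower in 223mut in 15 of 15 clusters, though in cluster 9 by little, at 1.3589 in 223mut and 1.3599 in wildtype. Clusters of a library are no replicates. Ribosomal protein genes that the rule missed, such as RPL37A, were not in these sums.

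**Figure D4:**
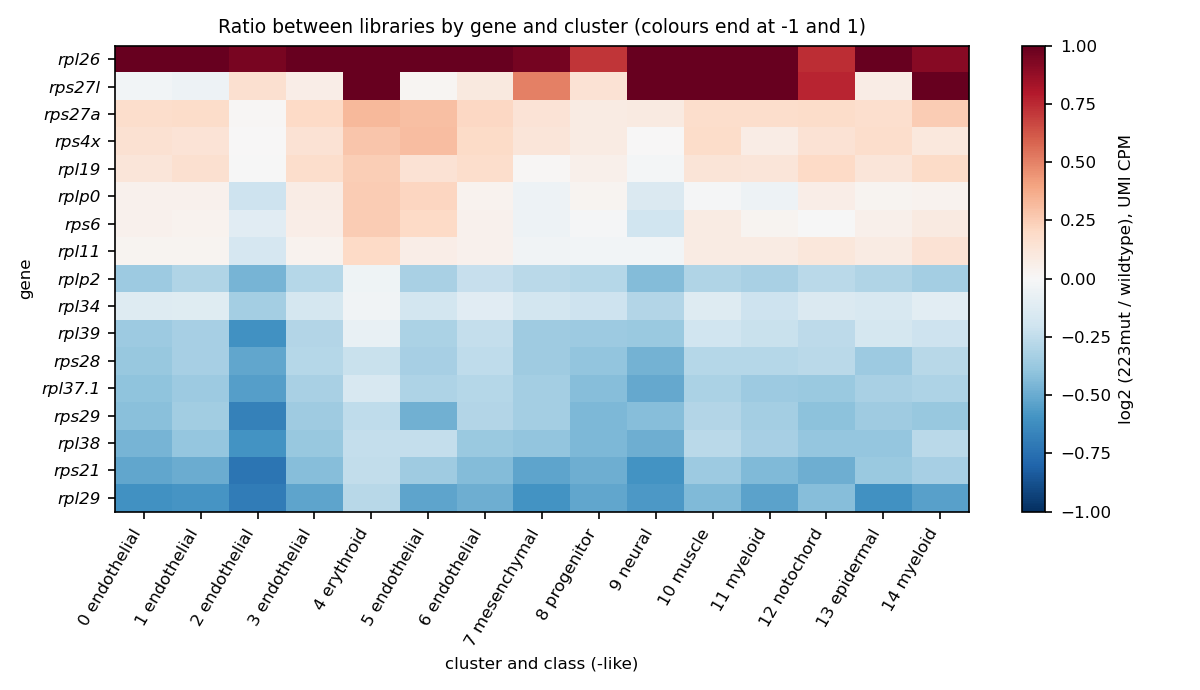
Log2 ratio of 223mut over wildtype in UMI CPM (colour, red higher and blue lower in 223mut) for 17 named members (rows) in the 15 clusters (columns). The lower rows, from rpl34 to rpl29, are blue in every cluster, rpl26 is red in every cluster, and rps27l is red in erythroid-like cluster 4 but pale in the endothelial-like clusters.

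A single member, rpl26, was called higher in endothelial-like cells. This feature, one of those with the symbol rpl26 (ENSDARG00000102317), had 102 CPM in 223mut and 43.6 CPM in wildtype, a log2 ratio of 1.21 (interval 1.15 to 1.32). It was higher in 223mut in all 15 clusters, from 0.72 in progenitor-like cluster 8 to 1.62 in cluster 5. Its levels were 84.7 to 135 CPM in the clusters of 223mut and 35.5 to 67.3 CPM in those of wildtype. Clusters of a library are no replicates, and how many other features of this level were higher in all clusters was not counted. Its namesake rpl26.1 (ENSDARG00000101794) had 272 CPM in 223mut and 287 CPM in wildtype (-0.08). The sum of both was 375 CPM in 223mut and 331 CPM in wildtype, a log2 ratio of 0.18. The copies may share reads, and the strains differ in more than the mutation, so the level of either copy is uncertain.

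In erythroid-like cells the outstanding member was rps27l, a paralog of rps27 that is a direct p53 target in human cells. It had 348 CPM in 223mut (26308 UMIs) and 110 CPM in wildtype (4302 UMIs), a log2 ratio of 1.66 (interval 1.62 to 1.71). The 223mut level was 3.17 times that of wildtype. In the authors' table it had 490 CPM in 223mut and 130 CPM in wildtype, a log2 ratio of 1.90. At matched depth the ratio was 2.03 in cells of 5000 to 10000 UMIs, 1.43 in cells of 10000 to 20000 and 1.66 in cells of 20000 to 60000. The paralogs rps27.1 and rps27.2 had log2 ratios of 0.14 and 0.24 in the same cells.

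Summed over endothelial-like cells, rps27l was close to even. There it had 147 CPM in 223mut and 151 CPM in wildtype, a log2 ratio of -0.04 (interval -0.09 to 0.02). Over the 6 clusters the ratios lay between -0.05 and 0.16, with 0 called. At matched depth the ratio was -0.13 in endothelial-like cells of 2000 to 5000 UMIs, -0.10 at 5000 to 10000 and -0.01 at 10000 to 20000. The deepest cells, of 20000 to 60000 UMIs, went past the rule of size. In these 74 cells of 223mut and 102 of wildtype, rps27l had 163 CPM in 223mut and 119 CPM in wildtype (0.46). Besides cluster 4 it was called higher in 223mut in 6 other clusters, all of them non-endothelial. In neural-like cluster 9 it had 210 CPM in 223mut and 85.9 CPM in wildtype, and in muscle-like cluster 10 it had 246 CPM in 223mut and 117 CPM in wildtype. The myeloid-like clusters were alike, with 130 CPM in 223mut and 65.0 CPM in wildtype in cluster 11, and 271 CPM in 223mut and 127 CPM in wildtype in cluster 14. Several of these rest on fewer than 200 UMIs in a library. Globins, a measure of erythroid RNA outside erythroid cells, held 0.954% of UMIs in 223mut and 0.631% in wildtype in cluster 11, and 0.898% in 223mut and 0.779% in wildtype in endothelial-like cluster 0, and their part in these values was not tested.

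Genes known as p53 targets, a list chosen after these values were seen, had similar ratios in cluster 4. Of 5 with at least 5 CPM, 3 were called higher in 223mut and none was lower, where 30.5% and 8.65% of all features were higher and lower. The p53 antagonist mdm2 had 50.5 CPM in 223mut and 13.96 CPM in wildtype (log2 ratio 1.78), and the cyclin gene ccng1 had 652 CPM in 223mut and 309 CPM in wildtype (1.07). In endothelial-like cells 1 of 9 was higher, phlda3 with 12.4 CPM in 223mut and 6.94 CPM in wildtype (0.76). Another 2 were lower, among them sesn1 with 19.5 CPM in 223mut and 39.95 CPM in wildtype (-0.998). The summed list was lower in 223mut in endothelial-like clusters 3 and 6 and higher in all other clusters, so the rise was not confined to cluster 4. In neural-like cluster 9 the sum was 823 CPM in 223mut and 494 CPM in wildtype. In myeloid-like cluster 11 it was 569 CPM in 223mut and 312 CPM in wildtype.

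By UMIs, the rest of the family followed the general shift of erythroid-like cells. The median log2 ratio was 0.16 over 82 members and 0.16 over all 5099 features tested, and with globin UMIs left out of the scale both medians were 0.02. In the authors' table the members lay below all features, with medians of 0.25 and 0.43. With globins left out there, the medians were 0.01 for members and 0.22 for all features. Of the members 6 were called higher and 0 lower on total UMIs, against the backgrounds of 30.5% and 8.65%. On non-globin UMIs 3 were higher and 5 lower, where 19% and 15.6% of 6220 features were, and the 5 were rpl29, rps21, rpl38, rps29 and rps28, all among the genes lower in every cluster. Beside rps27l and rpl26 (log2 ratio 1.34), rpl7l1 was higher on both scales, with 128 CPM in 223mut and 87.3 CPM in wildtype (0.54, and 0.40 on non-globin UMIs). The genes rpl37 (0.35) and rps27a (0.33), also called on total UMIs, were not called on non-globin UMIs.

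**Figure D5:**
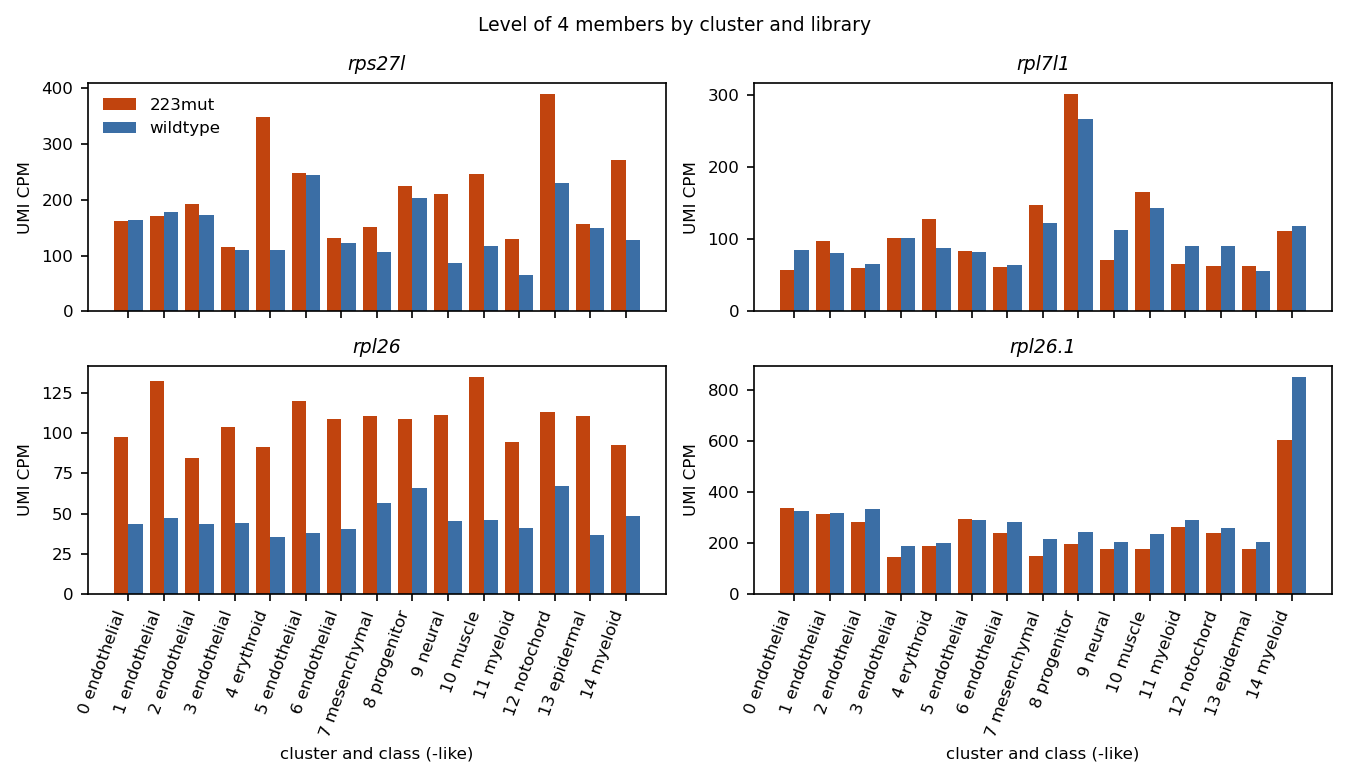
Level (y axis, UMI CPM) of rps27l, rpl7l1, rpl26 and rpl26.1 in each cluster (x axis) for 223mut (orange) and wildtype (blue), each bar 1 library. In erythroid-like cluster 4 rps27l stands at 348 CPM in 223mut and 110 CPM in wildtype, rpl7l1 peaks in progenitor-like cluster 8, rpl26.1 peaks in myeloid-like cluster 14, and rpl26 is higher in 223mut in every cluster.

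A few scarce members were uneven between clusters. Relative to the family total, 5 of the 82 members differed 2-fold or more between clusters in the authors' table, where 98.6% of 8100 features did, and 5 did in UMIs, beside 98.3% of 7987 features. They were rpl37 (9.0-fold), rpl7l1 (6.1-fold), rpl26.1 (5.1-fold), rps27l (4.2-fold) and rpl26 (3.3-fold). Both libraries were summed for these folds, so differences between the libraries enter them. This holds for rpl26, higher in 223mut in every cluster, and for rps27l, higher in 223mut in cluster 4. By the authors' table, 5 members also passed in the 223mut library alone and 5 in the wildtype library alone. The gene rpl7l1, a relative of rpl7 that acts in the assembly of the large subunit, was highest in progenitor-like cluster 8, with 302 CPM in 223mut and 267 CPM in wildtype, against 57.6 to 165 CPM in the other clusters of 223mut and 56.4 to 144 CPM in those of wildtype. The copy rpl26.1 was highest in myeloid-like cluster 14, whose leading genes include the macrophage gene mfap4, with 604 CPM in 223mut and 851 CPM in wildtype. In the other clusters it had 147 to 338 CPM in 223mut and 187 to 333 CPM in wildtype. Both peaks were present in both libraries. The scarce rpl37 had 49.1 CPM in 223mut and 51.3 CPM in wildtype in cluster 8, and at most 38.4 CPM in the other clusters of 223mut and 29.99 CPM in those of wildtype.

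Other pairs of paralogs were close to even. Summed, rpl5a and rpl5b had 3470 CPM in 223mut and 3194 CPM in wildtype endothelial-like cells (log2 ratio 0.12), rps26 and rps26l 4441 CPM in 223mut and 4715 CPM in wildtype (-0.09), and rpl22 and rpl22l1, of which the second is known to replace the first in mouse, 3692 CPM in 223mut and 3792 CPM in wildtype (-0.04). The acidic stalk genes rplp2 and rplp2l together had 7350 CPM in 223mut and 8281 CPM in wildtype (-0.17). In erythroid-like cells these sums had log2 ratios of 0.25, 0.07, -0.00063 and -0.01 in the same order.

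Genes outside the rule that followed the family most closely were themselves parts of translation. Over the 30 columns of the authors' table, the highest Pearson correlations with the family sum among 1854 genes included those of faua (0.95), which encodes a ubiquitin-like fusion to a ribosomal protein, rack1 (0.91), a ribosome-bound scaffold, RPL37A (0.89), the elongation factor gene eef1g (0.87) and the translation factor gene eif5a (0.83). With UMIs the correlations of these 5 lay between 0.74 and 0.94.

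Few genes of the wider translation machinery were called in endothelial-like cells, while in erythroid-like cells ribosome biogenesis and mitochondrial ribosomal protein genes were called higher more often than features as a whole. In endothelial-like cells 0 of 7 elongation factor genes were called. Of 31 genes of initiation and poly(A) factors 0 were higher in 223mut and 2 lower, the helicase genes eif4a1b (-0.47) and eif4a2 (-0.34), and of 11 other genes with a terminal oligopyrimidine tract or a place on the ribosome 0 were called. Of 33 ribosome biogenesis genes 2 were higher, mych and the nucleolar gene gnl3, and 1 lower, noc3l. Of 74 mitochondrial ribosomal protein genes 7 were higher and 4 lower. The S6 kinase genes that share the prefix had 1 of 5 lower, rps6ka3a (-0.35). The shares of all features were 13.2% higher and 8.88% lower.

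In erythroid-like cells 31 of 33 ribosome biogenesis genes were called higher in 223mut and 1 was lower, mycn, with a median log2 ratio of 0.76 where all features had 0.16 and 30.5% were higher. The rRNA methyltransferase gene fbl had 201 CPM in 223mut and 110 CPM in wildtype (0.86), dkc1, the pseudouridine synthase, 139 CPM in 223mut and 75.6 CPM in wildtype (0.87), and nip7 55.7 CPM in 223mut and 26.5 CPM in wildtype (1.05). On non-globin UMIs 31 of 34 were higher and 1 lower, with a median of 0.62 beside 0.02 for all features. On that scale 19% of 6220 features were higher and 15.6% lower. Mitochondrial ribosomal protein genes were higher in 56 of 74 and lower in 0 on total UMIs, and higher in 34 and lower in 0 on non-globin UMIs. The other lists were compared on total UMIs, where 30.5% of all features were higher. Initiation and poly(A) factor genes were higher in 15 of 31 and lower in 0, with a median of 0.32. Of 8 elongation factor genes 2 were higher, with a median of 0.24, and of the 11 other genes with such a tract or a place on the ribosome 4 were, with a median of 0.24, among them the nucleolar gene npm1a (0.97). The cytosolic ribosomal protein genes had the medians of all features by UMIs, 0.16 on total and 0.02 on non-globin UMIs. In the authors' table their median was 0.25 beside 0.43 for all features.

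Across cell classes the biogenesis list was highest in progenitor-like cluster 8, with 6741 CPM in 223mut and 6450 CPM in wildtype, where 10 of the 14 other clusters had under 2500 CPM in both libraries. Among erythroid-like cells its sum was 2667 CPM in 223mut and 1581 CPM in wildtype.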

How the data were processed

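Per the labels' protocols, cells of 1 223mut and 1 wildtype library were profiled with a droplet kit that reads the 3′ ends of transcripts. The submitters' processing notes name bcl2fastq, Cell Ranger, Seurat and the build GRCz11, and the headers of the deposited matrices name software version 3.0.2. The deposited matrices hold raw UMI counts per gene and barcode, not normalized. The authors' table, a signal per cluster and library, holds mean values per cell in linear units. Each column became whole sums at 1 number of cells (tolerance 1e-06), 6125 for 223mut and 6227 for wildtype, but the sums exceeded all deposited UMIs for 64 of 17819 genes in 223mut and 90 in wildtype, so the values are not raw UMIs. How the authors derived them was not given in the sources used here. All per-sample columns were used (0 left out).

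Ribosomal protein members and the lists were chosen with earlier results of these data known. The design had taken the table's sums for UMIs. Shares by cluster and folds between clusters were still taken from the table, with raw UMIs beside them, and ratios between libraries from raw UMIs. Kept cells (at least 500 genes, at most 10% mitochondrial UMIs) were given the authors' cluster with the highest multinomial likelihood over non-member genes (profile pseudocount 0.1). Clusters were named from marker lists, and these rebuilt names need not match the study's. Doublets were left in. Scrublet, in scanpy 1.11.5 with an expected share of 6%, called 2.65% of 223mut and 0.519% of wildtype cells and served as an alternative. UMIs were scaled to 1000000 per class or cluster (CPM), features averaging 5 CPM or more were compared as log2(CPM + 1) differences, 223mut minus wildtype, which understate changes of low genes, and at least 25% higher or 20% lower was the rule of size. No p-value is given, since each group is 1 library. Intervals for ratios were exact (Clopper-Pearson on the UMIs of both libraries), and since cells vary they cover counting error only. On simulated counts this recovered 100% of changed genes, which says nothing of variation between libraries, since each group is 1 library. Named members were the 8 most abundant, the 12 most uneven between clusters, the 5 highest and 5 lowest ratios in endothelial-like cells, all paralogs, and a set of members of known interest, of which some are not reported here. Protein and promoter sequences were not used here.

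Alternatives changed the cell filter, depth, denominator, pseudocount, low-value filter, scaling, clusters and source. Python 3.11.15 with numpy, scipy and pandas was used.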

Additional observations from a re-analysis of the deposited data

Results flagged for a closer look

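With 1 library per group these differences between cell classes were not tested. Each was taken up because its direction was opposite in the classes, beyond counting error in both. The family's share of UMIs had a log2 ratio of 223mut over wildtype of 0.13 in erythroid-like cluster 4 and -0.08 in progenitor-like cluster 8, a difference of 0.21, and without globins the ratio of cluster 4 was -0.01. The scarce copy rpl37 had a log2 ratio of 0.35 in erythroid-like cells and -0.50 in endothelial-like cells, a difference of 0.85. The assembly gene rpl7l1 had a log2 ratio of 0.54 in erythroid-like cells and -0.13 in endothelial-like cells, a difference of 0.67. Its endothelial-like clusters did not share a direction, with -0.57 in cluster 0, which was uneven in cell number between the libraries, and 0.27 in cluster 1.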

How the results depend on the processing

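No paired analysis was possible because each group had 1 library. The difference in share per cell over all kept cells (-0.997 points) turned to 1.71 points with globins left out. It was -0.752 points in cells with over 200 and under 2500 genes and under 5% mitochondrial UMIs and -0.254 points without erythroid-like cells, and lay between -1.15 and -0.878 points under the other 6 alternatives. The log2 ratio of the endothelial-like share in the table (-0.02) was 0.0037 with raw matrices, 0.0047 with raw matrices and globins left out, -0.0494 with uneven clusters left out, -0.0226 with globins and -0.0215 with mitochondrial genes left out. The erythroid-like ratio in the table (0.20) was -0.0316 with globins left out, 0.13 with raw matrices and -0.0107 with raw matrices and globins left out, and 0.197 with mitochondrial genes left out. Weighting and uneven clusters could not be varied there because it is a single cluster. The median member ratio in endothelial-like cells (0.04) was 0.0246 with uneven clusters left out and 0.0093 in the authors' table. The highest over the lowest cluster share (1.71) was 1.67 with globins left out, 1.60 in 223mut alone, 1.88 in wildtype alone, 1.47 with raw matrices and 1.65 with raw matrices and globins left out. The cause of each was not tested. Members called in endothelial-like cells numbered 6 to 9 and members past 2-fold between clusters 4 or 5 under every alternative run. Of single called members, none turned direction, while rpl37.1 in endothelial-like cells (1 of 8 alternatives) and rps27a and rpl37 in erythroid-like cells (2 of 5 each) were then no longer called. Several settings were chosen after seeing the data: the stricter cell filter, leaving out erythroid-like cells, raw matrices with globins out, and the other source for each ratio. Depth limits scarce members most, and intervals know nothing of variation between embryos.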

Other observations

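Genes other than members that were lower in 223mut in all 15 clusters, at a mean of at least 500 CPM, included the linker histone gene histh1l, with log2 ratios between -6.76 and -4.93, the embryonic globin gene hbbe1.2, between -1.89 and -0.65, and the unnamed gene si:dkey-151g10.6, between -0.55 and -0.15. They were chosen after their values were seen.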
